A study of Homo sapiens with 22 samples.

Results

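Binding of N-MYC and WDR5 was examined at 37 genes of nucleotide and one-carbon synthesis, chosen by pathway from a fixed list, among 20162 protein-coding genes annotated on the hg19 (GRCh37) genome. All 37 symbols were found in the annotation (GENCODE 44 placed on GRCh37). N-MYC and WDR5 were mapped by ChIP-seq, in which DNA crosslinked to a protein is recovered with an antibody and sequenced, and sites of enrichment are called as peaks. Both lines used, CHP-134 and IMR-32, come from neuroblastoma and carry amplified N-MYC. Cells of the former were kept for 4 h in DMSO or in a compound, with 3 libraries per antibody and treatment. IMR-32 cells were untreated, with 2 libraries per antibody. The DMSO concentration was 0.005% by the methods and 0.0005% in another field of the sample labels. Labels of the compound disagree, and its identity is not given here. Each library pooled 3 immunoprecipitations, and each line is a single cell line that stands for no other tumour.

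Purine nucleotides are built stepwise on phosphoribosyl pyrophosphate (PRPP) until inosine monophosphate (IMP) is formed, which is then turned into AMP or GMP. Pyrimidine synthesis starts from carbamoyl phosphate and leads through UMP to CTP, and ribonucleotide reductase and thymidylate synthase supply the deoxynucleotides for DNA. Serine and the folate cycle donate the one-carbon units that the purine ring and thymidylate need. MYC proteins bind DNA as heterodimers with MAX, preferably at the E-box CACGTG, and genes of nucleotide synthesis are long known as MYC targets. WDR5 is a chromatin protein of the MLL/SET methyltransferase complexes that also contacts MYC proteins directly.

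A gene was counted as listed in a library when any base of a peak lay within 1 kb of one of its transcription start sites (TSSs), and as bound in a group when listed in at least 2 of its libraries. Peak strength was read as the percentile of the peak's fold over local background within its own list, from 0 to 100, because folds of different lists rest on different backgrounds. A gene without a peak was set at 0. The lists carry no read numbers, so sequencing depth is unknown, and a missing peak means only that none passed the peak caller's threshold.

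The lists differed widely in length. N-MYC lists held 9125 to 15286 peaks in CHP-134 DMSO libraries, 2964 to 12313 in compound libraries and 5242 to 8286 in IMR-32 libraries. WDR5 lists held 1671 to 4891, 15 to 5973 and 1258 to 1693 peaks in the same order. The compound libraries of replicate 2 were the shortest for both proteins, and several counts that rest on them are also given without them. Mean percentiles under the compound are given only with them. Among 9 genes that mark the adrenergic state of neuroblastoma, N-MYC was bound at 4 in CHP-134 (HAND2, GATA2 and GATA3 among them) and at 3 in IMR-32, against 1 and 0 of 4 mesenchymal genes. Peaks report binding and not expression, so these counts do not test the identity of the lines.

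N-MYC was bound at 33 of the 37 synthesis genes in CHP-134 DMSO cells (89.2%), against 37.6% of all protein-coding genes. Single DMSO libraries listed 33, 32 and 31 members, against 44.4%, 30.3% and 37.6% of coding genes. All 3 listed 29 members, against 26.5%. The strongest sites were at NME1, MTHFD2, CAD, RRM2 and the shared promoter of PPAT and PAICS. NME1 makes nucleoside diphosphate kinase A, MTHFD2 is the mitochondrial methylenetetrahydrofolate dehydrogenase, CAD carries the first 3 activities of pyrimidine synthesis, and RRM2 is the small subunit of ribonucleotide reductase. PPAT catalyses the committing step of the purine ring, and PAICS carries 2 later steps. The sequences at or beside these summits are shown because the strongest N-MYC peaks of the pathway lay there. Each stretch holds the hexamer nearest to the summit, within 100 bp of it. That hexamer lies off centre at MTHFD2 and RRM2, and the RRM2 stretch ends short of the summit itself. The stretches are GRCh37 sequence, read on the strand of the gene, with CACGTG in capitals, or, where it was absent, CACGCG or its complement CGCGTG.
NME1 (chr17:49230942-49230971, + strand): agtgctgcgaacCACGTGggtcccgggcgc
MTHFD2 (chr2:74425688-74425736, + strand): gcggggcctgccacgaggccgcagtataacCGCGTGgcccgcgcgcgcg
CAD (chr2:27440307-27440336, + strand): cgcgccgttagcCACGTGgaccgactccgg
RRM2 (chr2:10260718-10260824, + strand): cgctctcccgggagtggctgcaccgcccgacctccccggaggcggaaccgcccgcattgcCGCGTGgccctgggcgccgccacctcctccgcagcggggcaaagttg
PAICS (chr4:57302565-57302690, + strand): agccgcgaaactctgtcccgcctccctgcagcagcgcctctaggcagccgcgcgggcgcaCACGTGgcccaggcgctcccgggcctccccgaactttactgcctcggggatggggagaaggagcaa

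The NME1 and CAD summits lay in the untranslated part of exon 1, the PAICS summit lay in intron 1, and those of MTHFD2 and RRM2 lay upstream of the canonical transcript. At NME1 the N-MYC percentiles were 99.2, 98.1 and 99.6 in DMSO replicates 1, 2 and 3, with a mean of 99.0 ± 0.778 (SD, n = 3). At MTHFD2 they were 97.0, 98.7 and 99.6, with a mean of 98.5 ± 1.32 (SD, n = 3). Both genes stood near the top of every N-MYC list in CHP-134, and MTHFD2 did so although no CACGTG lay within 100 bp of the summit searched.

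At CAD the percentiles were 96.9, 94.4 and 97.0, with a mean of 96.1 ± 1.45 (SD, n = 3). At RRM2 they were 95.5, 90.9 and 97.8, with a mean of 94.7 ± 3.52 (SD, n = 3). At PPAT and PAICS a single peak gave 99.7, 84.3 and 96.5 for both genes, with a mean of 93.5 ± 8.12 (SD, n = 3). These genes are transcribed away from each other, so their peak is 1 site that counts for both genes. Other members whose peaks lay within 1 kb of another coding gene were GART (with SON), TK1 (AFMID), PSPH (CCT6A), PFAS (CTC1), ADSL (an unnamed coding gene) and NME1 (the NME1-NME2 readthrough), and at these the peak cannot be assigned to one gene.

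**Figure D1:**
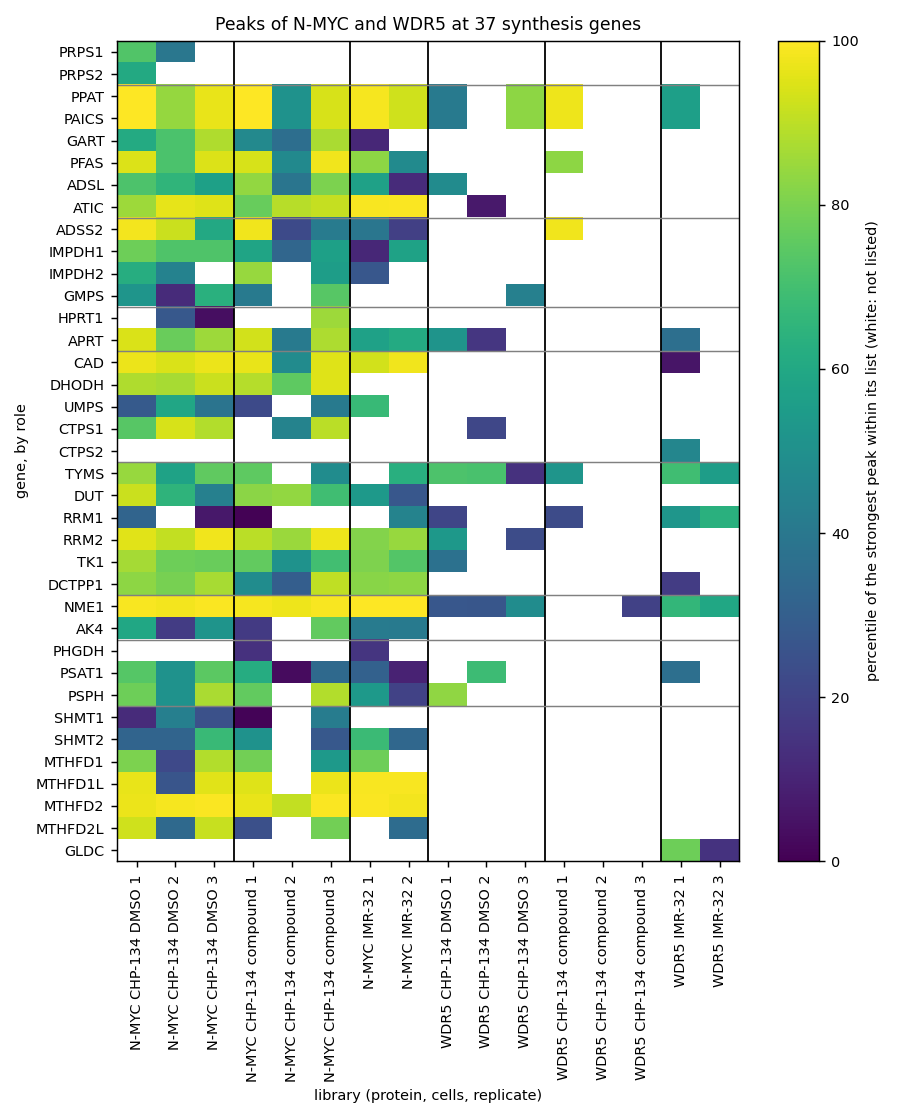
Percentile of the strongest peak within 1 kb of a TSS of each of the 37 genes (rows, grouped by role between grey lines) in each of the 16 libraries (columns, grouped by protein and cells between black lines), with the colour scale from 0 to 100 and white for no listed peak. N-MYC fills most rows in CHP-134 libraries, and WDR5 fills few.

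By role, all 6 genes of the purine ring up to IMP were bound by N-MYC in DMSO cells. Besides PPAT and PAICS they were ATIC, which makes the last 2 steps to IMP, with a mean percentile of 92.2 ± 5.96 (SD, n = 3), PFAS with 87.2 ± 13.3, GART with 73.7 ± 13.6 and ADSL with 64.8 ± 7.55. All 4 members placed between IMP and AMP or GMP were bound. Their mean percentiles were 83.6 at ADSS2, 74.2 at IMPDH1, 42.7 at GMPS and 35.6 at IMPDH2. The salvage enzymes differed, with a mean of 85.6 ± 8.45 (SD, n = 3) at APRT and 10.4 ± 15.0 at HPRT1, where 1 library listed no peak.

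In pyrimidine synthesis 4 of 5 genes were bound. Beside CAD these were DHODH, the mitochondrial dihydroorotate dehydrogenase, with a mean percentile of 89.0 ± 2.64 (SD, n = 3), CTPS1 with 85.6 ± 10.2 and UMPS with 42.1 ± 15.5. The paralogs CTPS1 and CTPS2 both make CTP from UTP, and CTPS2 had no N-MYC peak in any of the 8 N-MYC libraries. Of the 6 deoxynucleotide genes all were bound, with mean percentiles of 83.0 at DCTPP1, 80.6 at TK1, 72.5 at TYMS, 66.8 at DUT and 12.9 at RRM1, beside RRM2. The large and the small subunit of ribonucleotide reductase thus stood far apart, since RRM1 was at 32.2, unlisted and 6.50 in the libraries in which RRM2 was at 95.5, 90.9 and 97.8. The adenylate kinase AK4 had a mean of 43.1 ± 22.3 (SD, n = 3).

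In serine synthesis PSPH and PSAT1 were bound, with mean percentiles of 72.1 ± 18.8 and 66.5 ± 13.3 (SD, n = 3), while PHGDH, the first enzyme of the pathway, was listed in no DMSO library. PHGDH was listed in 1 compound library at 14.1 and in 1 IMR-32 library at 15.4. In the folate cycle the mitochondrial enzymes MTHFD1L and MTHFD2L had means of 72.8 ± 40.1 and 72.9 ± 33.6, and replicate 2 was the low library at both, with 26.5 and 34.2. The cytosolic MTHFD1 had 63.6 ± 36.3, SHMT2 had 44.0 ± 20.5 and SHMT1 had 26.8 ± 15.4. GLDC, of the glycine cleavage system, had no N-MYC peak in any library.

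The first step, PRPP synthesis, was the least covered. PRPS1 was listed at 72.9 and 39.8 in DMSO replicates 1 and 2 and PRPS2 at 60.7 in replicate 1 alone, and neither was listed in any compound or IMR-32 library. The 4 members not bound in DMSO cells were thus PRPS2, CTPS2, PHGDH and GLDC, of which the last 3 were listed in no DMSO library.

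High binding was common among the members. A percentile of 90 or more in at least 2 DMSO libraries, a threshold set after the data were seen, was reached by 11 of 37 (29.7%), against 4.55% of all coding genes. Of 33 other genes of the same pathways, counted by the same rule, 25 were bound by N-MYC in DMSO cells, against 37.6% of coding genes. The highest of the 33 other genes was AMPD2, an AMP deaminase, at 98.6 ± 1.13 (SD, n = 3). It was followed by NME2 at 97.1 and by MAT2A, which makes the methyl donor S-adenosylmethionine, at 97.0. ALDH1L1, AMT, CDA, ADA and ADSS1 were in no DMSO list, and AK1, UCK1 and SAMHD1 were each in 1.

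**Figure D2:**
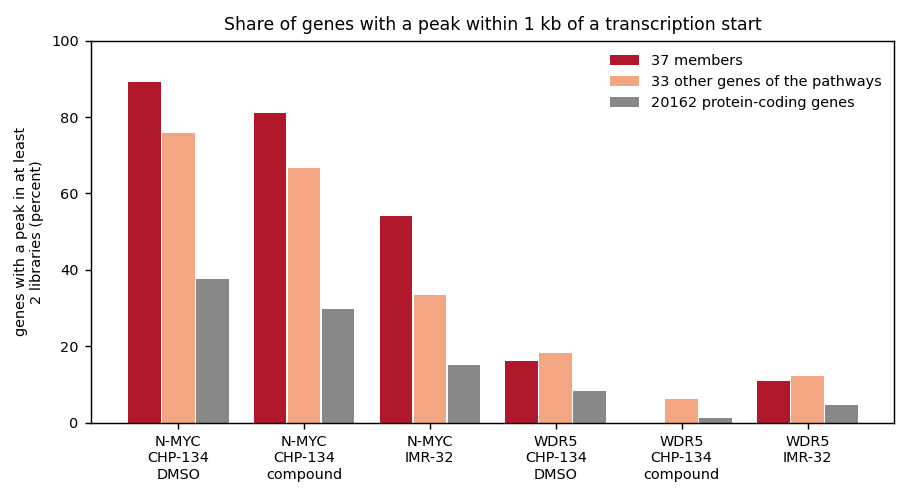
Share of genes (percent, from 0 to 100) with a peak within 1 kb of a TSS in at least 2 libraries of each group, for the 37 members, the 33 other genes of the pathways and the 20162 protein-coding genes. For N-MYC in CHP-134 DMSO cells the share was 89.2% of the members and 37.6% of all coding genes, and for WDR5 it was 16.2% and 8.24%.

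The N-MYC summits lay close to TSSs. Over the 3 DMSO libraries the median distance from a member's summit to its nearest TSS was 66.0 ± 7.0 bp (SD, n = 3), against 157 ± 4.36 bp for all coding genes with a peak. Of 96 member peaks in these libraries, 56 had their summit within 100 bp of a TSS and 4 lay more than 500 bp away. Bound members had a median of 4 annotated TSSs and all bound genes 3, which bears on this distance, and measured from the single canonical TSS the medians were 158 ± 44.4 bp and 215 ± 6.56 bp. RRM2 was an example, since its summits lay 4 to 16 bp from an upstream TSS and over 2 kb from the canonical TSS.

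The E-box CACGTG lay within 100 bp of the N-MYC summit at 16 of the 33 bound members (48.5%), against 27.3% of 7575 bound coding genes. CACGTG is its own complement, so 1 search covers both strands, and the summit was taken from the library with the lowest q-value. The 16 members were PRPS1, PPAT, PAICS, PFAS, ADSL, ATIC, IMPDH1, CAD, DHODH, UMPS, NME1, AK4, SHMT1, SHMT2, MTHFD1 and MTHFD1L, with PPAT and PAICS sharing 1 site. At 13 of them the E-box lay within 30 bp of the summit, and at PPAT, PAICS, ATIC and CAD there were 2. In windows of the same size 2 kb to either side, 0 of 33 members held CACGTG, against 1.89% and 2.39% of bound genes. Median GC content of the summit windows was 69.2% in the members and 69.2% in all bound genes.

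Strength and E-box went together among coding genes in general. Of 700 coding genes with a mean N-MYC percentile of 90 or more, 63.4% held CACGTG, and 5 of the 7 members in that class did. CACGCG, searched on both strands, was found at 10 of 33 members (30.3%) and at 28.9% of all bound genes, and the looser CANNTG, which includes CACGTG, at 69.7% and 58.2%. Around the canonical TSS of every coding gene, bound or not, 5.68% held CACGTG within 100 bp, and 6 of the 37 members (16.2%) did.

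Without CACGTG, 6 bound members held CACGCG or its complement (IMPDH2, APRT, RRM2, PSAT1, MTHFD2 and MTHFD2L) and 11 held neither. The summit windows of CTPS1, ADSS2, DCTPP1 and TK1 are shown because these 4 had the highest N-MYC percentiles among the members with neither sequence and no WDR5 binding. The CTPS1 and DCTPP1 summits lay in the untranslated part of exon 1, and those of ADSS2 and TK1 lay upstream of the canonical transcript.
CTPS1 (chr1:41445481-41445510, + strand): aggatctgaagccggccgcaggtaggctga
ADSS2 (chr1:244615375-244615495, - strand): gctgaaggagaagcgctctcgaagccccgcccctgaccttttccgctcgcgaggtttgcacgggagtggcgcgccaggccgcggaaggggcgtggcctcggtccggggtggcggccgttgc
DCTPP1 (chr16:30441294-30441323, - strand): tcgcggtgcagcggtgggcggcatgtctgt
TK1 (chr17:76183339-76183438, - strand): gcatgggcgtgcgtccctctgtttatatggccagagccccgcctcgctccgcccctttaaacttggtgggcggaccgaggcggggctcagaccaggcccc

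The summits searched at these 4 genes were those of replicate 1, where the percentiles were 74.2 at CTPS1, 98.3 at ADSS2, 83.0 at DCTPP1 and 86.5 at TK1. No match says only that these letters were absent from the window.

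**Figure D3:**
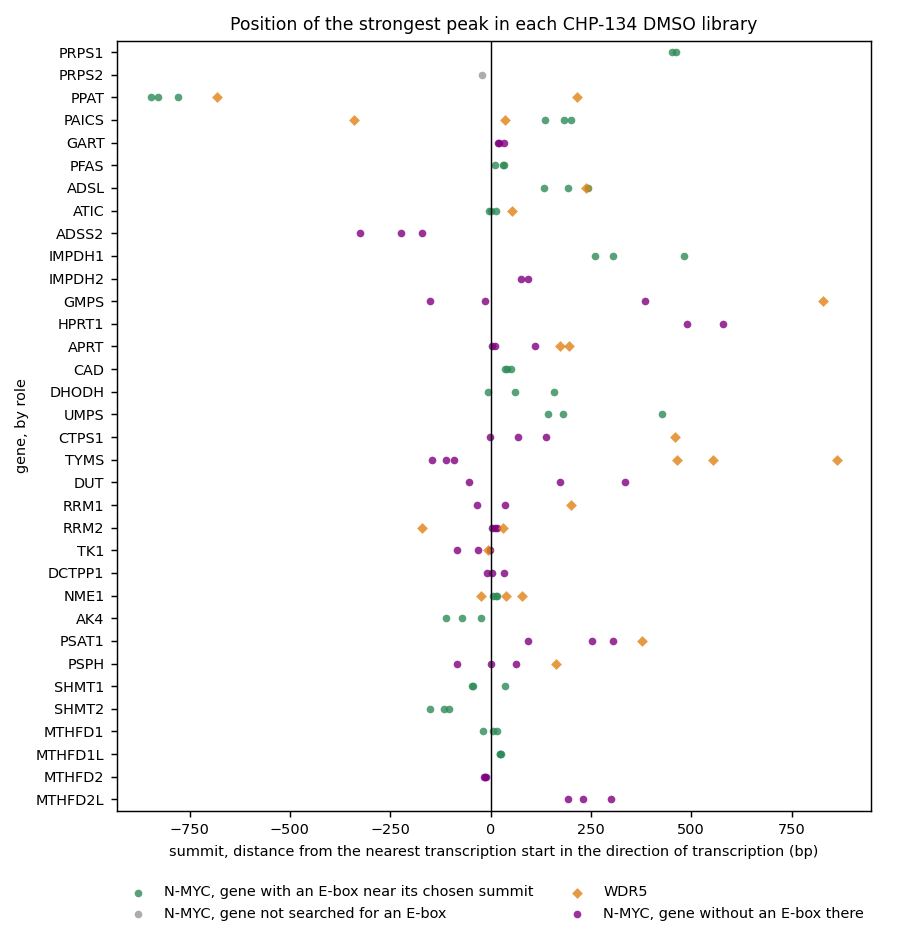
Distance in bp from the nearest TSS, in the direction of transcription, of the summit of the strongest N-MYC peak (circles, coloured by whether the gene holds CACGTG within 100 bp of its chosen summit) and WDR5 peak (diamonds) in each CHP-134 DMSO library, for the members with a peak. Of the 96 N-MYC summits, 56 lie within 100 bp of a TSS, and the WDR5 summits at TYMS lie downstream of the N-MYC summits.

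WDR5 was bound at 6 of 37 members in CHP-134 DMSO cells (16.2%), PPAT, PAICS, APRT, TYMS, RRM2 and NME1, against 8.24% of coding genes. Replicates 1, 2 and 3, with lists of 4891, 1758 and 1671 peaks, listed 10, 6 and 6 members. The shares of coding genes in these lists were 18.5%, 8.03% and 7%. The count of bound members was 2 without WDR5 replicate 1, against 4.10% of coding genes, and 3 without replicate 3, against 6.34%. An N-MYC and a WDR5 peak, each from at least 2 libraries, overlapped at APRT, TYMS, RRM2 and NME1, and 6.99% of coding genes were cobound in this sense. Without WDR5 replicate 1 this count was 2, against 3.57%. Sequences at the N-MYC summits of TYMS and RRM1 and beside that of APRT, the other members with WDR5 (RRM1 in IMR-32), are shown because no CACGTG lay within 100 bp of these summits, and capitals again mark CGCGTG.
APRT (chr16:88878155-88878184, - strand): tacggatgggagCGCGTGgcccgcgacctc
TYMS (chr18:657528-657557, + strand): tcctgcgtttccccctggcgcacgctctct
RRM1 (chr11:4116051-4116080, + strand): gggcgcgggaaggggatttggattgttgcg

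The stretches of APRT and TYMS touch annotated exons, and the RRM1 summit lay in the untranslated part of exon 1. WDR5 was listed in every DMSO library at NME1 and TYMS. At NME1 its percentiles were 27.0, 26.8 and 48.7, with summits 46.3, 26.3 and 148 bp from the mean N-MYC summit. At TYMS, thymidylate synthase, WDR5 percentiles were 71.9, 71.2 and 14.1, and the summits lay 1067, 759 and 670 bp from the N-MYC summit. Both proteins were thus listed within the TYMS promoter region, but at places that differed by more than the spread of the summits.

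At APRT WDR5 was listed in replicates 1 and 2, at percentiles of 51.9 and 15.8, with summits 154 and 131 bp from that of N-MYC. At RRM2 it was listed in replicates 1 and 3, at 53.3 and 23.3, and the strongest WDR5 summit lay 2063 bp from the N-MYC summit in replicate 1 and 182 bp in replicate 3, with a second, weaker peak in replicate 1 near the N-MYC summit. At PPAT and PAICS replicates 1 and 3 gave 41.0 and 83.1, but their peaks lay on different sides of the promoter pair and shared no base, so these genes were not counted as cobound. Both were still counted as bound by WDR5. In an alternative added after the data were seen, peaks of at least 2 libraries had to overlap. WDR5 was then bound at 4 members, against 7.81% of coding genes. The WDR5 percentiles of the 10, 6 and 6 members listed in DMSO replicates 1, 2 and 3 were all below 90. The share of all coding genes at 90 or more for WDR5 was not counted, so no contrast with N-MYC is drawn.

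In IMR-32 cells WDR5 was bound at 4 members (10.8%), TYMS, RRM1, NME1 and GLDC, against 4.74% of coding genes. Replicate 1 alone listed 11 members, against 7.76% of coding genes, and replicate 3 listed 4, against 5.84%. At NME1 the percentiles were 66.4 and 59.4, at TYMS 69.5 and 55.7, at RRM1 52.7 and 63.4, and at GLDC 77.9 and 14.5. Only NME1 had overlapping N-MYC and WDR5 peaks, against 2.26% of coding genes. GLDC differed from the others because neither line listed N-MYC there. The sequence at its WDR5 summit, in an annotated exon upstream of the canonical transcript, is shown for that reason.
GLDC (chr9:6645968-6645997, - strand): cccacctgatcttgccccagtgcggctcca

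Among the 33 other pathway genes, WDR5 was bound at 6 in CHP-134 DMSO cells (ALDH1L2, AHCY, TK2 and PNP among them), against 8.24% of coding genes. In IMR-32 cells it was bound at 4 of the 33 (AHCY, AK3, TK2 and PNP), against 4.74%. The members, with 6 and 4 of 37, thus did not stand above these other genes. PNP, purine nucleoside phosphorylase, had WDR5 percentiles of 91.7, 82.8 and 89.7 in DMSO and 85.1 and 86.1 in IMR-32 libraries.

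The compound comparison asked whether N-MYC stood lower or higher at these genes than in DMSO cells. N-MYC was bound at 30 of 37 members in compound cells (81.1%), against 29.8% of coding genes, and all 30 were among the 33 of DMSO cells. The 3 others were PRPS1, listed in no compound library, HPRT1, listed at 85.4 in replicate 3, and RRM1, listed at 0.578 in replicate 1. Replicate 2 held 2964 peaks and listed 19 members, against 10.9% of coding genes. Replicates 1 and 3 each listed 31, against 34.5% and 37.1%. The count was 29 without compound replicate 2, against 29.5% of coding genes. It was 19 without compound replicate 1 and 18 without compound replicate 3, against 10.8% and 10.7% of coding genes. In an alternative added after the data were seen, only the 2964 strongest peaks of each list were kept. Compound libraries then listed 19, 19 and 18 members, against 11.1%, 10.9% and 11.4% of coding genes. DMSO libraries listed 17, 16 and 18, against 11.9%, 11.4% and 11.7%.

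Gene by gene, IMPDH1 and TK1 were lower in every compound library than in every DMSO library, which is 2 of 35 members tested (5.71%) against 5.62% of 10113 coding genes. IMPDH1, an IMP dehydrogenase of GMP synthesis, was at 77.8, 72.5 and 72.3 in DMSO and at 58.5, 33.2 and 56.8 in compound libraries, a difference of -24.7 percentile points. TK1, thymidine kinase, was at 86.5, 78.1 and 77.1 in DMSO and at 76.0, 50.8 and 69.7 in compound libraries, a difference of -15.1. No member was higher in every compound library, against 0% of coding genes. In the exact permutation test (two-sided, 3 against 3 libraries), the smallest p the design allows is 0.1, so 0 genes could pass an unadjusted 0.05, and every Benjamini-Hochberg adjusted p was 1.00.

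The mean percentile was lower in compound cells at 30 members and higher at 5, with a median difference of -12.5 for the members and -10.3 for all coding genes tested. These means include the short list of compound replicate 2, with unlisted genes at 0, and were not taken without it. The median percentile of the members was 75.0, 2.78 and 75.9 in compound replicates 1, 2 and 3, with unlisted members at 0. In DMSO replicates 1, 2 and 3 it was 77.8, 59.0 and 75.6. Leaving out compound replicate 3, compound replicate 1 or DMSO replicate 2 gave 11, 6 and 8 members lower in every compound library (31.4%, 17.6% and 22.9%), against 18.1%, 12.1% and 16% of coding genes. Without compound replicate 2 the lower members were again IMPDH1 and TK1 (5.71%), near the 5.97% of coding genes. ADSL (2.86% of the members tested) was higher in both remaining compound libraries than in every DMSO library, near the 2.78% of coding genes.

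Replicates of the same number deviated together in DMSO and compound cells, and were therefore also compared as pairs. In the paired comparison 13 of 35 members (37.1%) were lower in the compound library of every pair, against 20.9% of coding genes, and 0 were higher, against 0.316%. These were GART, ATIC, ADSS2, IMPDH1, CAD, TYMS, RRM2, TK1, NME1, PSAT1, MTHFD1, MTHFD2 and MTHFD2L. Without both libraries of replicate 2, an alternative added after the data were seen, 14 of 35 members (40.0%) were lower in both remaining pairs, against 30% of coding genes, and ADSL, IMPDH2 and DHODH (8.57%) were higher, against 10.1%. Ranked only among the 2102 genes with a peak in all 6 libraries, also added afterwards, 0 of 18 members were lower in every pair, against 13.0%, and PFAS, ADSL and DHODH were higher, which is 16.7% against 14.0%. With the same 2102 genes and the percentiles of the whole lists, 10 of these 18 members (55.6%) were lower in every pair, against 35.3%, and 0 were higher, against 1.24%.

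**Figure D4:**
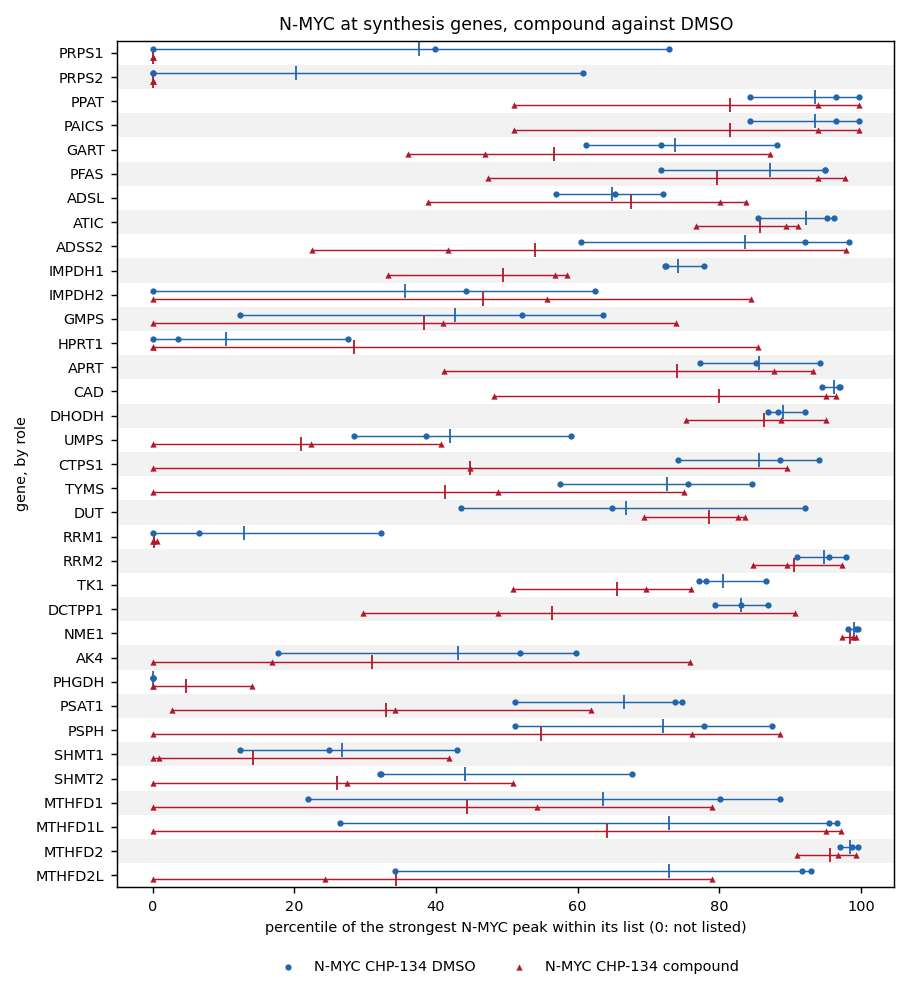
N-MYC percentile of each member in the 3 CHP-134 DMSO libraries (blue circles) and the 3 compound libraries (red triangles), with 0 for no listed peak, for the 35 members listed in at least 1 of these 6 libraries. Vertical ticks are means and horizontal lines run from the lowest to the highest library. The groups of IMPDH1 and TK1 do not overlap, and at most other members 1 compound library, replicate 2, is the lowest.

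WDR5 in compound cells was bound at 0 of 37 members, against 1.29% of coding genes. The 3 lists held 5973, 15 and 401 peaks, and because of these unequal lengths no comparison with DMSO was made. They listed 6, 0 and 1 members (16.2%, 0% and 2.70%), close to the 15.7%, 0.0992% and 1.88% of coding genes. The members listed in replicate 1 were PPAT and PAICS at 97.4, ADSS2 at 97.8, PFAS at 82.9, TYMS at 52.1 and RRM1 at 23.0, and replicate 3 listed NME1 at 19.5.

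The comparison of the lines asked at which genes N-MYC stood differently in IMR-32 cells. N-MYC was bound at 20 members in IMR-32 (54.1%), against 15.2% of coding genes, and all 20 were also bound in CHP-134 DMSO cells, where 14.5% of coding genes were bound in both lines. The other 13 members of CHP-134 were PRPS1, GMPS, HPRT1, DHODH, CTPS1 and SHMT1, in no IMR-32 list, and GART, IMPDH2, UMPS, TYMS, RRM1, MTHFD1 and MTHFD2L, in 1. Of the 16 members with CACGTG at the CHP-134 summit 11 were bound in IMR-32, and of the 17 without it 9 were, which was not tested. IMR-32 lists were shorter and came from paired reads on another sequencing run, so line and run cannot be told apart. With the 2964 strongest peaks of each list, 11 members were bound in IMR-32, 17 in DMSO and 19 in compound cells, against 7.45%, 10.9% and 10.2% of coding genes.

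The percentile was lower in both IMR-32 libraries than in every DMSO library at 10 of 35 members tested (28.6%), against 25.3% of 10050 coding genes. The largest differences were at DHODH and CTPS1. DHODH was at 88.2, 86.8 and 92.0 in CHP-134 DMSO libraries and CTPS1 at 74.2, 94.0 and 88.6, and neither was listed in IMR-32. GART, a trifunctional enzyme of the purine ring, was at 61.2, 71.8 and 88.1 in CHP-134 and at 11.0 in IMR-32 replicate 1 alone.

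ADSS2, which makes the precursor of AMP, was at 98.3, 92.0 and 60.4 in CHP-134 and at 39.2 and 18.8 in IMR-32. PSAT1, the serine pathway's aminotransferase, was at 73.7, 51.1 and 74.7 and at 31.0 and 9.41. GMPS, GMP synthetase, was at 52.1, 12.3 and 63.6 and unlisted in IMR-32. These groups did not overlap, and IMPDH1, APRT, RRM2 and SHMT1 were the other members of this kind.

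At 3 members (8.57%) the percentile was higher in both IMR-32 libraries, against 3.0% of coding genes. MTHFD1L was at 96.6, 26.5 and 95.4 in CHP-134 and at 99.2 and 99.2 in IMR-32. ATIC was at 85.4, 96.1 and 95.2 and at 99.2 and 99.5. NME1 was at 99.2, 98.1 and 99.6 and at 99.9 and 99.8, a difference of 0.903 points between genes already at the top of both lists.

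In the exact permutation test (two-sided, 3 against 2 libraries) no member could go below p = 0.1, and the smallest adjusted p over all genes was 0.617. The median difference, IMR-32 minus CHP-134, was -21.9 for the members and -15.0 for all coding genes tested. Leaving out DMSO replicate 2 or IMR-32 replicate 1 gave 17 members lower in IMR-32, against 43.6% and 39.0% of coding genes, and leaving out IMR-32 replicate 1 or 2 gave 5 and 6 members higher, against 5.87% and 13.3%. Ranked only among the 2658 genes with a peak in all 5 libraries, 5 of 20 members were lower (ADSS2, APRT, RRM2, PSAT1 and PSPH), against 13.2%, and 5 were higher (ATIC, TK1, DCTPP1, NME1 and MTHFD1L), against 17.0%.

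**Figure D5:**
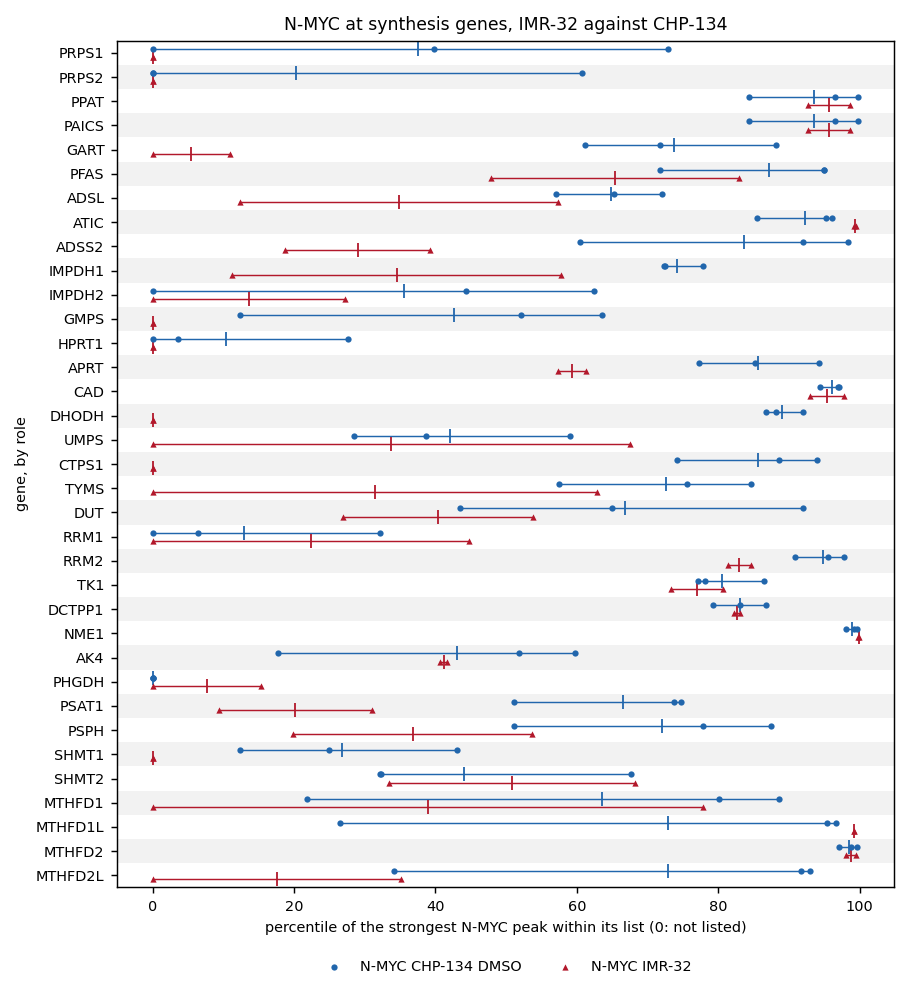
N-MYC percentile of each member in the 3 CHP-134 DMSO libraries (blue circles) and the 2 IMR-32 libraries (red triangles), with 0 for no listed peak. Vertical ticks are means and horizontal lines run from the lowest to the highest library. DHODH and CTPS1 are at 0 in both IMR-32 libraries and above 74 in every CHP-134 library, while NME1, MTHFD2, CAD and PPAT with PAICS lie above 84 in all 5.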

How the data were processed

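By the labels and the methods, adapters were removed by the authors with Cutadapt, Bowtie2 placed the reads on hg19, and MACS2 listed the peaks of each library at a q-value of 0.05. Program versions are not given in the sources used here. The deposited lists give the authors' fold over local background (a linear ratio), the deposited −log10 p-value and −log10 q-value, an integer score and the summit offset. Folds were used only as ranks within a list, the q-value chose summits and a stricter filter, and the p-value and score were not used. Reads were single for CHP-134 and paired for IMR-32. IgG samples were not analysed here, and some genes of the other lists count in the totals but are not reported here by name. Depth is unknown.

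The members and lists were chosen with earlier results of these data known. Values in every library are given for the 6 members highest for N-MYC in CHP-134 DMSO cells, for those with WDR5 in either line, and for those whose groups did not overlap (up to 6 in each direction). Windows were printed for the first 2 sets and for 4 members with neither CACGTG nor WDR5. Groups were compared by exact permutation of libraries, gene by gene, with Benjamini-Hochberg adjustment over all genes with a peak (Python 3.11.15, scipy 1.17.1, pysam 0.24.0). Replicates share a number in the labels, and the methods describe independent repeats. Deviations from the group mean correlated by 0.641, 0.604 and 0.654 between DMSO and compound libraries of the same number (2102 genes), so these were also compared as pairs. The matching of peaks to genes and the comparison of groups were tested on simulated data. Alternatives were the number of libraries, the q-value, the distance to a TSS, the ranking, the motif window, pairing and leaving out each library.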

Additional observations from a re-analysis of the deposited data

How the results depend on the processing

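Depth is unknown, list lengths differ by library, and counts of few members move easily. With equal numbers of strongest peaks, N-MYC was bound at 17 (DMSO), 19 (compound) and 11 (IMR-32) members. The shares of coding genes were 10.9%, 10.2% and 7.45%. Asking for a peak in at least 1 library gave 14 members for WDR5 in CHP-134 DMSO cells, 11 in IMR-32 and 7 under the compound. The shares of coding genes were 21.5%, 8.86% and 16.3%. Both proteins were then at 14 members, against 19.4%. Asking for every library gave 2 members for WDR5 and 2 for both proteins in DMSO cells, against 3.86% and 2.99%. For N-MYC under the compound it gave 18, against 10.6%. Leaving out 1 library at a time gave 30 to 31 for N-MYC in DMSO cells, 18 to 29 under the compound and 23 to 25 in IMR-32. The shares of coding genes were 27.3% to 34.5%, 10.7% to 29.5% and 17.9% to 25.9%. For WDR5 it gave 2 to 5 in DMSO cells and 4 to 11 in IMR-32, against 4.10% to 6.34% and 5.84% to 7.76%. For both proteins it gave 2 to 4, against 3.57% to 6.75%. For members lower in every compound library, ranking among promoter peaks gave 1, among genes in every library 0, and leaving out libraries 2 to 11. The shares of coding genes were 5.50%, 1.71% and 5.97% to 18.1%. The replicate block gave 13, against 20.9%, or 0 among genes in every library ranked anew, against 13.0%. It gave 10 among them with the percentiles of the whole lists and 14 without replicate 2 of both groups, against 35.3% and 30%. For members higher, the same settings gave 1 among genes in every library, against 1.38%, and 0 to 1 without a library, against 0.0911% to 2.78%. Under the block they gave 3 among genes in every library ranked anew and 3 without replicate 2 of both groups, against 14.0% and 10.1%. For members higher in CHP-134 than in IMR-32, ranking by q gave 17 and genes in every library 5, against 30.3% and 13.2%. Leaving out libraries gave 11 to 17 and the replicate block 18, against 28.9% to 43.6% and 38.4%. For those higher in IMR-32 these were 5 among genes in every library and 3 to 6 without a library, against 17.0% and 3.54% to 13.3%. Between the lines same-numbered libraries deviated together by 0.0600 and 0.00379 only, so their numbers pair nothing. Under the block 4 members were higher in IMR-32, against 6.77% of coding genes. The median summit distance was 158 bp from the canonical TSS and 49.3 bp for the peak nearest to a TSS. Leaving out libraries gave 13 to 16 members with CACGTG, against 28.5% to 33.1% of bound genes, and 63.5 to 70.0 bp. Of the other settings, the E-box windows, the stricter q-value and the distances to a TSS left the counts of bound members within 1.5 times of those reported. Equal lists, overlapping peaks and the last 3 blocks were chosen after seeing the data. Causes were not tested.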
